A study of Mus musculus with 28 samples.

Results

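Peripheral blood mononuclear cells (PB MNCs) taken after 200 cGy of total body irradiation were compared with PB MNCs of nonirradiated mice. The members are the 7 arrays labelled 200 cGy and the 7 arrays labelled Normal, out of 28 arrays in the series, and every probe with at least 5 values in each of these groups. This left 16665 of 16722 probes. Probes to which the platform annotation gives 1 gene symbol were averaged per symbol, which gave 9104 genes.

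The irradiated group held female C57Bl6 mice of 10 weeks, exposed to a single 200 cGy dose from a caesium source and bled 6 h later. The nonirradiated group held mice of the same strain that received no radiation and were bled in the same way. The remaining 14 arrays came from mice given 50 cGy or 1000 cGy, with 7 at each dose, and enter only where 200 cGy is set against those doses. Each array carried RNA of 1 mouse labelled with Cy5 and a universal mouse reference RNA labelled with Cy3, so every value is a log2 ratio of sample to reference, here centred on the median of its array. A level is such a ratio, and a log2 fold change is the mean at 200 cGy minus the nonirradiated mean. All samples come from 1 strain, 1 sex and 1 time point.

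Ionizing radiation breaks both strands of DNA. The kinase ATM senses the breaks and stabilizes the transcription factor p53, which switches on genes that hold the cell cycle, help repair and, in sensitive cells, start apoptosis. Lymphocytes are among the most radiosensitive cells of the body, and B cells are lost from blood sooner than most other types, whereas monocytes, granulocytes and platelets are far more resistant. Ficoll-Hypaque centrifugation, used here, keeps lymphocytes and monocytes and leaves most granulocytes and red cells behind, although platelets, reticulocytes and some granulocytes are carried over.

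The T cell receptor component Cd3e was above the reference RNA on all 14 arrays, with levels of 1.03 to 1.60 at 200 cGy and of 0.90 to 1.23 in nonirradiated mice, and so was the B cell receptor chain Cd79b. Other lymphocyte markers were not: the B cell linker Blnk lay below it at 200 cGy (-0.84 to -0.37), and the plasma cell gene Jchain lay below it in every mouse of both groups. Between 24 and 68 values were missing per array at 200 cGy (median 33), against 39 to 215 in nonirradiated mice (median 58), with ranges that overlapped. The difference in means was -51.3 (two-sided exact permutation test, p = 0.0227), and it did not pass without mouse 1, 4, 5 or 7 at 200 cGy (p between 0.0542 and 0.0612). The table holds no intensities, so depth is unknown and the number of arrays limits the precision.

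Some arrays stood apart from their group in some measures. Nonirradiated mouse 7 had the highest mean of neutrophil markers among the controls, 1.33 relative to the control mean against -0.57 to 0.09 in the other 6. It had the lowest mean of platelet markers, -1.89 against -0.31 to 0.80. Over probes without missing values it did not stand apart. Its mean correlation with the other controls was 0.945, within the range from 0.938 (mouse 3) to 0.960 (mouse 4). Among the 100 genes with the largest SD at 200 cGy, 88 were highest in the same 3 mice, numbers 2, 3 and 6. The mean level of these 100 genes was 2.00 to 2.77 in those mice and 0.43 to 1.19 in mice 1, 4, 5 and 7, and it was 0.77 to 2.28 in nonirradiated mice, where mouse 3 was highest. Mice 2, 3 and 6 also had the lowest array medians of the irradiated group, -0.45 to -0.35 against -0.27 to -0.17, and the highest means of erythroid markers. Whether these measures are linked was not tested. Genes such as Npy5r, a neuropeptide Y receptor, and Osbpl6, an oxysterol-binding protein, belonged to this set. Of the 100 genes, 1 differed between 200 cGy and nonirradiated mice, against 41.6% of all genes tested. Genes picked for a large SD at 200 cGy seldom pass a test that divides by this spread, so the low count follows from the choice. Counts without nonirradiated mouse 7, or without mice 2, 3 and 6, are given below for the lists that they moved most. Of 177 named genes called, 21 lost the call under at least 1 of 25 alternatives, and these are pointed out beside their values.

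**Figure D1:**
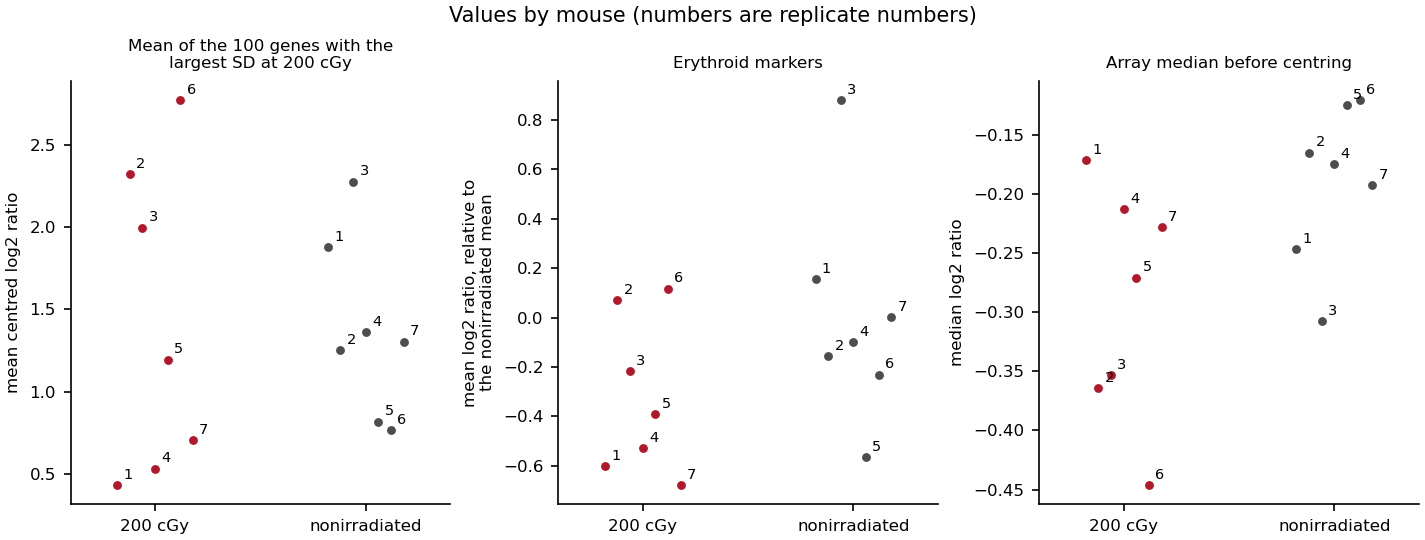
Values of the 14 arrays by mouse, with replicate numbers: the mean centred log2 ratio of the 100 genes with the largest SD at 200 cGy (left), the mean of erythroid markers relative to the nonirradiated mean (middle) and the array median before centring (right). Mice 2, 3 and 6 at 200 cGy lie highest in the left panel, at 2.00 to 2.77, and lowest in the right panel, at -0.45 to -0.35.

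At the level of single genes a large share of what was measured differed between the groups. Of 9104 genes, 2019 rose and 1764 fell at an adjusted p under 0.05 (limma with Benjamini-Hochberg adjustment), which is 22.2% and 19.4% of the genes tested and 41.6% in both directions together. Over probes, 3547 rose and 3367 fell, or 21.3% and 20.2% of 16665. The balance of rises and falls depended on the scaling of arrays: without centring 1470 genes rose and 2142 fell, and after quantile normalization 1762 rose and 1983 fell. The median log2 fold change of all genes was 0.04 with centring, -0.06 without it and -0.03 after quantile normalization. Before centring, the array medians were lower at 200 cGy, with a difference in means of -0.102 (two-sided exact permutation test, p = 0.0425).

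Large changes were mostly rises. A log2 fold change of at least 1 was reached by 526 genes that rose and 108 that fell, of at least 2 by 109 and 4, and of at least 3 by 16 and 0. In 873 genes all values at 200 cGy lay above all nonirradiated values (9.59% of genes tested), and in 841 they lay below (9.24%). Over probes, 1575 lay above (9.45%) and 1596 below (9.58%). Leaving out nonirradiated mouse 7 gave 1947 rises and 1701 falls, and with only mice 1, 4, 5 and 7 at 200 cGy, 1773 genes rose and 1506 fell.

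**Figure D2:**
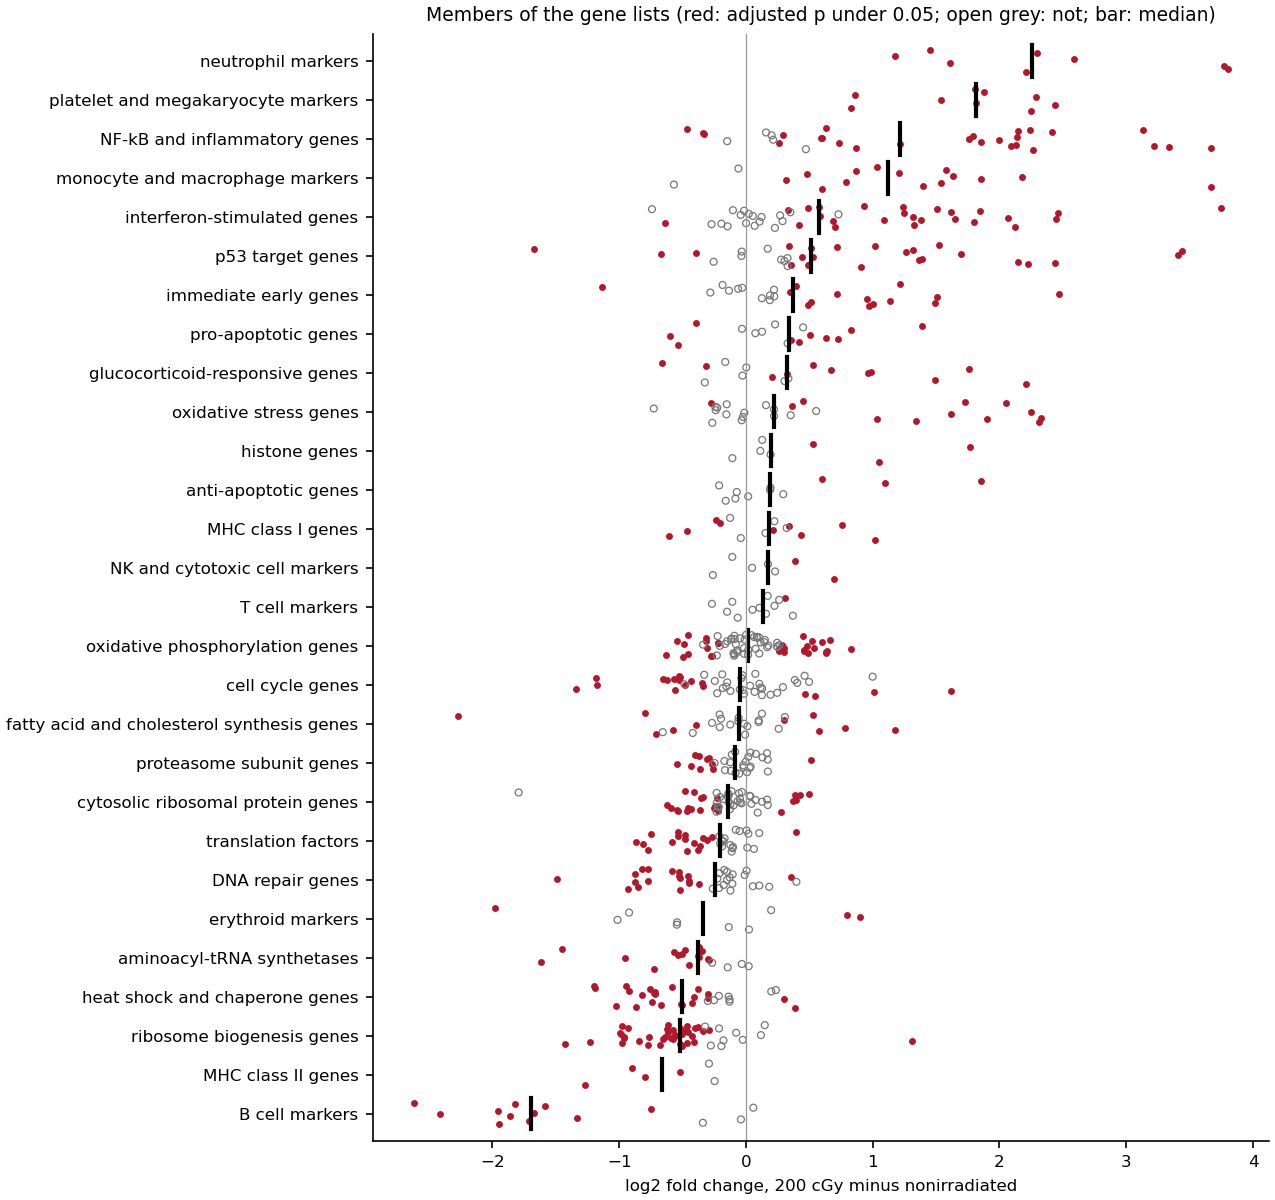
Log2 fold changes, 200 cGy minus nonirradiated, for the measured members of 28 gene lists, each point a gene. Filled red points passed an adjusted p of 0.05, open grey points did not, and the black bar is the list's median, which runs from -1.69 for B cell markers to 2.25 for neutrophil markers.

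Genes that p53 transcribes after DNA damage were higher at 200 cGy. Of 31 measured members of the p53 target list, 20 rose, 3 fell and 8 did not pass the test, where 22.2% of all genes rose and 19.4% fell. The same shares over all genes apply to the counts of every list below that use all 14 arrays. The median log2 fold change of the list was 0.52, against 0.04 over all genes. The mean of the list, relative to the nonirradiated mean, was 0.70 to 1.01 at 200 cGy (median 0.81) and -0.10 to 0.08 in nonirradiated mice (median 0.03), so the groups did not overlap. Without nonirradiated mouse 7 the counts were 18 and 3, and without mice 2, 3 and 6 they were 17 and 3.

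Psrc1 and Phlda3 had the largest rises of the list. Psrc1, a microtubule-associated protein of the mitotic spindle, had levels of 0.15, 0.72 and 1.14 at 200 cGy (lowest, median, highest) against -3.06, -2.93 and -2.18 in nonirradiated mice. Phlda3, which restrains Akt signalling by binding membrane lipids, had -0.85, -0.58 and -0.00 at 200 cGy against -4.54, -4.12 and -3.22. In both genes every irradiated mouse lay far above the highest control. The log2 fold changes were 3.44 ± 0.17 for Psrc1 and 3.41 ± 0.20 for Phlda3 (SE, n = 7 per group; limma, adjusted p = 7.24e-09 and 2.32e-08).

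Cdkn1a encodes p21, the inhibitor of cyclin-dependent kinases that carries out the p53-dependent arrest. Its levels were 0.81, 1.35 and 1.81 at 200 cGy against -1.52, -1.21 and -0.72 in nonirradiated mice, a log2 fold change of 2.44 ± 0.15 (limma, adjusted p = 4.05e-08). Ccng1, cyclin G1, had 0.15, 0.62 and 0.92 at 200 cGy against -1.78, -1.68 and -1.41, a change of 2.22 ± 0.11 (limma, adjusted p = 7.24e-09). Neither gene overlapped between the groups. Other members that rose included the polo-like kinase Plk3 (log2 fold change 1.69), the p53 relative Trp73 (1.01), the antiproliferative gene Btg2 (0.49) and Gtse1 (0.44), a regulator of p53 in the G2 phase. Gtse1 lost its call under 11 of 25 alternatives, among them no centring (limma, adjusted p = 0.0926), and Btg2 lost it after quantile normalization (limma, adjusted p = 0.354).

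Members that promote cell death moved by different amounts. Fas, the death receptor, had 2.24, 2.46 and 2.74 at 200 cGy against 0.81, 1.02 and 1.95 in nonirradiated mice, where mouse 7 was the highest. Its log2 fold change was 1.39 ± 0.16 (limma, adjusted p = 4.88e-06). Ei24, an endoplasmic reticulum protein first described as a p53-induced gene, had 1.14, 1.42 and 1.62 at 200 cGy against -0.05, 0.02 and 0.21, a change of 1.36 ± 0.08 (limma, adjusted p = 3.94e-08). The nuclease Aen (0.91) and Trp53inp1 (0.72), which promotes p53 phosphorylation, also rose without overlap, although Trp53inp1 did not pass after quantile normalization (limma, adjusted p = 0.0922). Bbc3, which encodes the BH3-only protein Puma, rose by 0.35 with overlap between the groups. It lost the call under 12 of 25 alternatives and had -0.0086 after quantile normalization (limma, adjusted p = 0.983). Pmaip1, which encodes the BH3-only protein Noxa, fell, with 2.03, 2.36 and 2.80 at 200 cGy against 2.66, 2.76 and 3.01 in nonirradiated mice (change -0.39, limma, adjusted p = 0.00944). Apaf1, the core of the apoptosome, and Perp, a membrane protein, had changes of 0.33 and -0.04 that did not pass the test.

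Among feedback regulators of p53, the ubiquitin ligase Mdm2 rose by 0.53 and the RNA-binding protein Zmat3 by 1.52, while the phosphatase Ppm1d had a change of -0.03 that did not pass. Of the members that repair or bypass damaged DNA, the translesion polymerase Polk rose by 1.27 and Xpc, which recognizes damage in nucleotide excision repair, by 0.34. Ddb2 (-0.25), Gadd45a (0.33) and Ercc5 (0.28) did not pass the test. Ddb2 passed as a fall under several alternatives, among them no centring and quantile normalization (limma, adjusted p = 0.0402 and 0.0205). Of the members tied to metabolism, Dcxr, a xylulose reductase, rose by 2.15 and Tigar, a regulator of glycolysis, by 0.52. Tigar lost its call under 16 of 25 alternatives, 10 of which left out 1 array (limma, adjusted p between 0.0531 and 0.125). Xpc lost its call under 7, among them no centring (limma, adjusted p = 0.135) and leaving out mouse 5 at 200 cGy or nonirradiated mouse 5 or 6.

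Beside Pmaip1, Sesn1 and Plk2 went against the rest of the list. Sesn1, sestrin 1, is a p53-induced inhibitor of the mTORC1 pathway. It had levels of 1.50, 1.98 and 2.26 at 200 cGy against 3.37, 3.70 and 3.75 in nonirradiated mice, with no overlap, and a log2 fold change of -1.67 ± 0.11 (limma, adjusted p = 4.69e-08). Its paralog Sesn2 had 0.20, 0.41 and 0.70 at 200 cGy against -0.06, 0.24 and 0.88 and did not pass the test. Plk2, a polo-like kinase, had -1.39, -1.24 and -0.91 at 200 cGy against -0.99, -0.55 and -0.11, a change of -0.67 ± 0.13 (limma, adjusted p = 0.000597) with overlap between the groups.

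**Figure D3:**
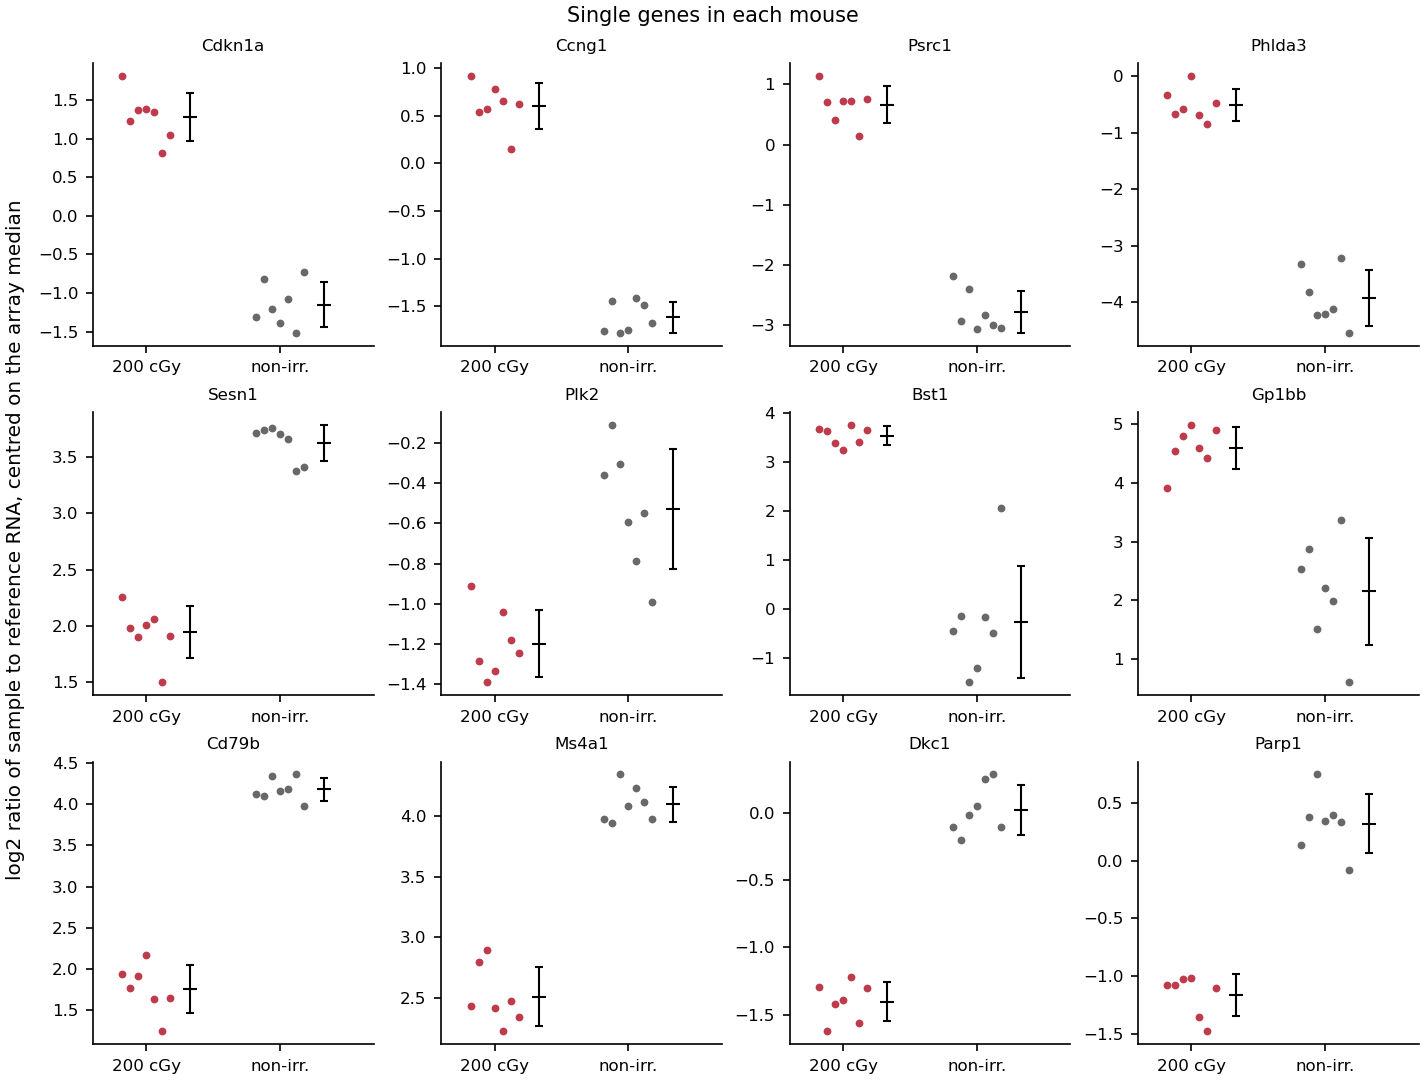
Centred log2 ratios of 12 genes in each mouse, 200 cGy on the left and nonirradiated (non-irr.) on the right of each panel, each point a mouse, with the mean and SD beside them. Cdkn1a, Ccng1, Psrc1 and Phlda3 lie wholly above the controls, and Sesn1, Cd79b, Ms4a1, Dkc1 and Parp1 lie wholly below them.

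Rps27l encodes a ribosomal protein that p53 induces, and it differs from its near-identical copy Rps27 at few residues. Rps27l had -0.55, -0.38 and -0.23 at 200 cGy against -1.89, -1.73 and -1.47 in nonirradiated mice, a log2 fold change of 1.32 ± 0.08 (limma, adjusted p = 4.05e-08). Rps27 had values in 5 irradiated mice. In mouse 2 it lay at the lowest ratio that the data hold (-6.28 after centring). The others had 2.28 to 2.40, against 2.18 to 2.78 in nonirradiated mice. With the value of mouse 2 included, Rps27 did not pass the test (limma, adjusted p = 0.278). How far each probe also binds RNA of the other copy was not tested.

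p53 binds DNA through a response element made of a pair of half-sites. RefSeq promoter windows (GRCm38.p6) ran from 250 bases before to 50 bases after each annotated start, and 32851 windows were searched. A p53 response element was sought on both strands, with at most 2 mismatches in all. The spacer between its half-sites was at most 13 bases. A gene with several starts counted if any of its windows matched. Distances are from the annotated start of the window that matched. A match was found in 5 of the 17 risen p53 targets with a window (29.4%), in 7 of 25 measured targets with a window (28%), in 4.53% of the 7420 tested genes with a window and in 4.71% of all 27025 genes with a window. Such a match is a description of the letters in the window, and binding was not measured. Stretches around the match are shown 5′ to 3′ on the strand of the gene for 4 of the risen genes and for Sesn1, since they put the gene that fell beside genes that rose, and capitals mark the half-sites.
Cdkn1a: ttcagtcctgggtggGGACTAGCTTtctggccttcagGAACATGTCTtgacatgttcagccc
Ccng1: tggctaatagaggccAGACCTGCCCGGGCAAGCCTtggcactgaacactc
Rps27l: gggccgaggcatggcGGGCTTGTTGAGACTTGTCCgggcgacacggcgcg
Trp73: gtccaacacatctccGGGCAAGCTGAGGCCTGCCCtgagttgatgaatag
Sesn1: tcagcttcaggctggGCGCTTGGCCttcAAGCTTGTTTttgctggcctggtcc
The stretch of Cdkn1a lies at chr17:29090891-29090952 on the plus strand and begins its match 73 bases before the start, with 0 mismatches and a spacer of 12 bases. The bases that directly follow its second half-site form another pair with it, with 1 mismatch and no spacer. They are in lower case because only the pair with the fewest mismatches was marked. Ccng1 (chr11:40755447-40755496, minus strand) and Rps27l (chr9:66946281-66946330, plus strand) had 1 mismatch and no spacer, at 195 and 117 bases before the start. Trp73 (chr4:154097205-154097254, minus strand) and Sesn1 (chr10:41887238-41887290, plus strand) had 2 mismatches, and only Sesn1 among these 4 had a spacer, of 3 bases. The list thus held matching windows in genes that rose and in a gene that fell.

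DNA repair genes did not follow the p53 targets. Of 36 measured members, 17 fell and 1 rose, with a median log2 fold change of -0.24. The per-mouse mean of the list was -0.49 to -0.26 at 200 cGy and -0.08 to 0.08 in nonirradiated mice. Parp1, which detects strand breaks and synthesizes poly(ADP-ribose), fell most: -1.48, -1.08 and -1.02 at 200 cGy against -0.08, 0.34 and 0.75, a change of -1.49 ± 0.12 (limma, adjusted p = 2.18e-07). Xrcc6 (Ku70) and Xrcc5 (Ku80), the subunits that bind broken ends in non-homologous joining, fell by 0.77 and 0.82, and their kinase partner Prkdc by 0.53. Rpa1, which coats single-stranded DNA, fell by 0.87. Of the damage kinases, Atr (-0.93), Chek1 (-0.85) and Atm (-0.52) fell, and Chek2 had a change of 0.18 that did not pass (limma, adjusted p = 0.326). Without mice 2, 3 and 6, Atm and Prkdc did not pass (limma, adjusted p = 0.129 and 0.0607), while Chek2 rose by 0.38 (limma, adjusted p = 0.00697). Polb, the polymerase of base excision repair, was the member that rose (0.36), but not without centring (limma, adjusted p = 0.136). Without mice 2, 3 and 6, 17 fell and 2 rose, at a median of -0.37.

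The lists of cell death genes were mixed. Of 16 measured pro-apoptotic genes, 7 rose and 3 fell, with a median of 0.34. Beside Fas, the BH3-only gene Bid had 0.93, 1.24 and 1.67 at 200 cGy against 0.17, 0.55 and 0.92 in nonirradiated mice, a change of 0.72 ± 0.13 (limma, adjusted p = 0.000366). The members that fell were Pmaip1, Casp2 and Aifm1, the last of which encodes a mitochondrial flavoprotein that takes part in caspase-independent death (change -0.54). Of 11 anti-apoptotic genes, 3 rose and none fell: the kinase Pim1 by 1.86, the Bcl-2 relative Mcl1 by 1.10 and the kinase Pim2 by 0.60. This share of rises is near the 22.2% over all genes. The median of the anti-apoptotic list was 0.19, 0.10 without mice 2, 3 and 6, and -0.09 after quantile normalization, under which Pim2 did not pass the test (adjusted p = 0.0894).

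B cell markers were lower in every irradiated mouse. Of 14 measured markers 11 fell, none rose, and the 11 that fell did not overlap between the groups. The median was -1.69, and the per-mouse mean was -1.71 to -1.21 at 200 cGy against -0.32 to 0.34 in nonirradiated mice. In bulk RNA, fewer B cells among the PB MNCs and less of each transcript per B cell cannot be told apart.

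The components of the B cell receptor fell by different amounts. Cd79b, the signalling chain Ig-beta, had 1.25, 1.77 and 2.17 at 200 cGy against 3.98, 4.16 and 4.36 in nonirradiated mice, a log2 fold change of -2.41 ± 0.12 (limma, adjusted p = 7.24e-09). Cd79a, its partner Ig-alpha, had 2.05, 2.47 and 3.33 against 3.92, 4.58 and 5.07 (change -1.86 ± 0.21; limma, adjusted p = 4.75e-06). The heavy chain gene Ighm fell less, by 0.75. The coreceptors and adaptors of the receptor were lower too, with changes of -1.95 for the linker Blnk, -1.71 for the inhibitory lectin Cd22 and -1.33 for Cd72.

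Vpreb3, a gene of the pre-B cell receptor family, had the largest fall of all genes called. Its levels were -0.06, 0.54 and 1.21 at 200 cGy against 1.99, 3.25 and 3.48 in nonirradiated mice, where mouse 7 was the lowest, and its change was -2.62 ± 0.24 (limma, adjusted p = 6.47e-07). Ms4a1, which encodes the surface antigen CD20, had 2.22, 2.43 and 2.89 at 200 cGy against 3.94, 4.08 and 4.34 (change -1.59 ± 0.11; limma, adjusted p = 8.14e-08). Hvcn1, a voltage-gated proton channel of B cells, fell by 1.96, the transcriptional coactivator Pou2af1 by 1.82 and Fcer2a, the low-affinity IgE receptor, by 1.67.

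The 3 remaining markers did not pass the test. They were Btk (-0.34), a kinase that myeloid cells also express, the tetraspanin Cd37 (-0.04) and Jchain (0.06), a marker of plasma cells. After quantile normalization Btk had -0.71 and Jchain -0.54, and both passed (limma, adjusted p = 0.000159 and 0.0174). Outside the list, the variable segment Ighv1-53 had -1.56, -1.15 and 0.38 at 200 cGy against 0.53, 1.08 and 2.03 (change -1.85 ± 0.33; limma, adjusted p = 0.000312). Srpk3, a serine/arginine-rich protein kinase, and Bcar3, an adaptor protein, also stood among the largest falls, at -2.30 and -1.95, and so did Scd1, the stearoyl-CoA desaturase, at -2.27.

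MHC class II genes, which B cells and other antigen-presenting cells express, moved with the B cell markers. Of 6 members 4 fell and none rose (median -0.66). The invariant chain Cd74 had 2.97, 3.24 and 3.79 at 200 cGy against 4.29, 4.55 and 4.93 (change -1.27 ± 0.14; limma, adjusted p = 4.94e-06). H2-DMa, which loads peptide, fell by 0.90 and the class II chain H2-Aa by 0.80. The change of H2-Eb1 was -0.29 and that of the class II transactivator Ciita -0.25, and neither passed. After quantile normalization they were -0.63 and -0.48, and both passed (limma, adjusted p = 0.00114 and 0.0251). The part of the B cell markers in these values was not tested.

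T cell markers changed little. Of 12 measured members 1 rose and none fell, at a median of 0.13 with centring, 0.03 without it and -0.17 after quantile normalization. The per-mouse mean was -0.06 to 0.14 at 200 cGy and -0.12 to 0.16 in nonirradiated mice. Thy1, a surface glycoprotein of mouse T cells, was the marker that rose, by 0.31 ± 0.11 (limma, adjusted p = 0.0322), and it lost its call under 11 of 25 alternatives, among them without nonirradiated mouse 7 (adjusted p = 0.0627) and without mice 2, 3 and 6 (adjusted p = 0.196). Cd3e (0.23) and Cd3g (-0.27), both parts of the T cell receptor complex, had changes of opposite sign that did not pass (limma, adjusted p = 0.0773 and 0.0764). Each passed under some alternatives, among them array weights (limma, adjusted p = 0.0388 and 0.0316). Of 7 NK and cytotoxic cell markers, the chemokine Ccl5 (0.69) and the lectin receptor Klrc1 (0.39) rose and none fell, a share of rises near the 22.2% over all genes. Neither gene passed after quantile normalization (limma, adjusted p = 0.239 and 0.66).

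**Figure D4:**
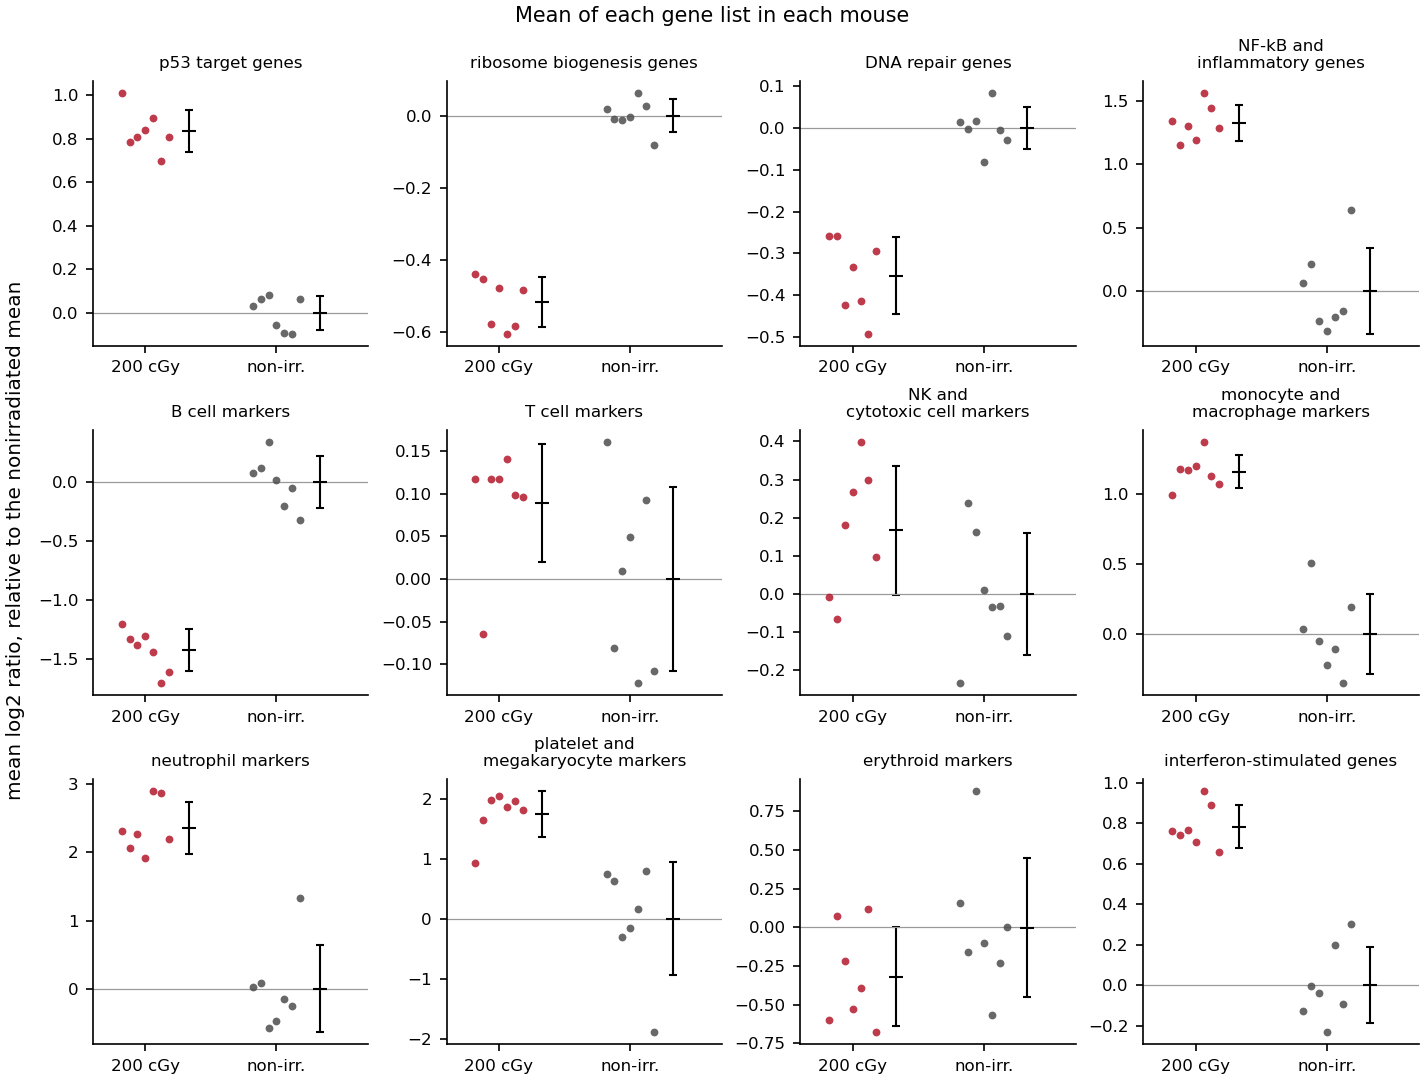
Mean log2 ratio of 12 gene lists in each mouse relative to the nonirradiated mean, 200 cGy on the left and nonirradiated (non-irr.) on the right, each point a mouse, with the mean and SD beside them. B cell markers lie at -1.71 to -1.21 at 200 cGy, T cell markers overlap the controls, and nonirradiated mouse 7 is the lone high control for neutrophil markers (1.33) and the lone low one for platelet markers (-1.89).

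Markers of monocytes, neutrophils and platelets were higher. All 8 measured neutrophil markers rose (median 2.25), as did 14 of 16 monocyte and macrophage markers (median 1.12) and all 9 platelet and megakaryocyte markers (median 1.81). The per-mouse mean of neutrophil markers was 1.92 to 2.90 at 200 cGy against -0.57 to 1.33 in nonirradiated mice, and that of monocyte markers 0.99 to 1.37 against -0.35 to 0.51. Ratios within RNA of a fixed amount show the share of each transcript. More cells of these types, more of each transcript per cell and fewer lymphocytes beside them therefore cannot be told apart.

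Bst1, an ADP-ribosyl cyclase on the surface of myeloid cells, had the largest rise of all genes called. Its levels were 3.25, 3.63 and 3.74 at 200 cGy against -1.50, -0.45 and 2.06 in nonirradiated mice, where the 2.06 belonged to mouse 7 and the next highest was -0.14. Its log2 fold change was 3.80 ± 0.39 (limma, adjusted p = 2.21e-06), and 4.19 ± 0.21 without nonirradiated mouse 7. Lcn2, a neutrophil granule protein that binds siderophores, had 3.65, 4.21 and 5.00 at 200 cGy against -0.09, 0.20 and 2.43 (change 3.77 ± 0.33; limma, adjusted p = 5.09e-07), and the 2.43 was again mouse 7. The remaining neutrophil markers rose by 1.17 for the granule protein Ngp, 1.45 for S100a9, 1.61 for Ly6g, 2.21 for the annexin Anxa1, 2.30 for S100a8 and 2.59 for the matrix metalloproteinase Mmp9. S100a8, Ly6g and Mmp9 overlapped between the groups. Without nonirradiated mouse 7 all 8 still rose, at a median of 2.47.

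Among monocyte markers, Cd14, the lipopolysaccharide coreceptor, had 2.28, 2.72 and 3.71 at 200 cGy against -1.96, -1.28 and 1.38 in nonirradiated mice (change 3.67 ± 0.42; limma, adjusted p = 6.69e-06). Cd68, a lysosomal protein of macrophages, had -0.32, 0.09 and 0.31 against -1.73, -1.48 and -0.99 (change 1.54 ± 0.12; limma, adjusted p = 2.16e-07). The Fc receptors Fcgr3 (2.18), Fcgr1 (1.85) and Fcgr4 (1.63) rose as well, and smaller rises were found for the growth factor receptor Csf1r (0.79) and for the macrophage surface receptor Adgre1 (0.60). Cd36 (-0.57) and Ms4a7 (-0.06) did not pass the test. The lectins Clec5a (3.37) and Clec4e (3.22) of myeloid cells were among the 10 largest rises of genes without overlap.

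Of the platelet markers, Gp1bb, a chain of the von Willebrand factor receptor, had 3.91, 4.60 and 4.98 at 200 cGy against 0.61, 2.21 and 3.36 in nonirradiated mice (change 2.44 ± 0.33; limma, adjusted p = 3.07e-05). Treml1, a receptor of platelet granules, had 5.32, 6.08 and 6.53 against 2.42, 4.47 and 5.15 (change 1.81 ± 0.36; limma, adjusted p = 0.00082). Controls spread widely in these genes, and the lowest in each was mouse 7. Pf4, platelet factor 4, rose by 2.29 and Cavin2 by 2.25, whereas Ppbp (0.86) and Clec1b (0.83) rose less and overlapped. Ppbp lost its call under 9 of 25 alternatives and Clec1b under 14, both of them after quantile normalization and without mice 2, 3 and 6. Without nonirradiated mouse 7, 8 of 9 rose at a median of 1.51, and without mice 2, 3 and 6, 6 of 9 rose.

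Erythroid markers gave calls in both directions, in shares not above those of all genes (22.2% rose and 19.4% fell). Of 10 members, at a median of -0.34, the transcription factors Gata1 (0.90), which megakaryocytes share, and Klf1 (0.80, with 6 nonirradiated values) rose, and Tfrc, the transferrin receptor of dividing cells, fell. Tfrc had -1.64, -1.47 and -1.22 at 200 cGy against 0.17, 0.51 and 0.84 in nonirradiated mice (change -1.98 ± 0.12; limma, adjusted p = 2.32e-08). Alas2, the heme synthesis enzyme of red cell precursors, had 5.13, 5.62 and 6.46 against 5.19, 5.72 and 6.25 and did not pass (change 0.02). Without mice 2, 3 and 6, 2 members rose and 4 fell, at a median of -0.44.

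Genes of inflammatory signalling rose together with the myeloid markers. Of 31 NF-kB and inflammatory genes, 23 rose and 3 fell (median 1.22), and the per-mouse mean was 1.15 to 1.57 at 200 cGy against -0.31 to 0.64 in nonirradiated mice, with mouse 7 the highest control. Tnfaip2, a TNF-induced protein of myeloid and endothelial cells, had 2.72, 2.89 and 3.65 at 200 cGy against -0.78, -0.29 and 1.36 (change 3.13 ± 0.27; limma, adjusted p = 4.31e-07). Nfkbia, the inhibitor that NF-kB itself induces, had 3.71, 4.09 and 4.45 against 1.95, 2.29 and 2.96 (change 1.76 ± 0.15; limma, adjusted p = 4.2e-07). Of the ligands, Tnf rose by 2.24, Ccl2 by 2.26, Cxcl2 by 2.13 and Il1b by 1.85. Of the receptors and adaptors, Tlr2 rose by 2.41, Tlr4 by 2.15 and Myd88 by 2.00. The adhesion molecule Icam1 rose by 1.22.

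The members that fell are regulators: Tnfaip3 (-0.47), which encodes the deubiquitinase A20, Socs3 (-0.34), an inhibitor of cytokine receptors, and the NF-kB subunit Relb (-0.33). Tnfaip3 lost its call under 11 of 25 alternatives, 9 of which left out 1 array, and Relb under 2, and neither passed without mice 2, 3 and 6 (limma, adjusted p = 0.181 and 0.154). The list held 2 falls without nonirradiated mouse 7 and 1 without mice 2, 3 and 6. Il6 had a change of -0.15 that did not pass. Cd14 belongs both to this list and to the monocyte markers, and Clec4e is a myeloid gene, so the lists are not independent, and the part of these cells was not tested.

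Immediate early genes, which cells switch on within minutes of many stimuli, gave 13 rises and 1 fall among 24 members (median 0.37). Ier3, a stress-induced survival gene, had -0.70, -0.24 and 0.16 at 200 cGy against -3.32, -3.03 and -1.25 in nonirradiated mice (change 2.47 ± 0.26; limma, adjusted p = 3.04e-06). Atf3, a stress-induced transcription factor, rose by 0.97, Fos by 0.96 and Egr1 by 1.14, while Jun had -0.28 and did not pass. Myc, which drives growth and ribosome production, was the member that fell: -1.99, -1.75 and -1.31 at 200 cGy against -0.82, -0.71 and -0.19 (change -1.14 ± 0.14; limma, adjusted p = 9.18e-06).

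Interferon-stimulated genes were higher, with 24 rises and 1 fall among 43 members (median 0.57) and a per-mouse mean of 0.66 to 0.96 at 200 cGy against -0.23 to 0.30 in nonirradiated mice. Ifi204, a DNA-sensing protein of the p200 family, had 0.18, 0.39 and 0.58 at 200 cGy against -1.90, -1.38 and -0.93 (change 1.80 ± 0.14; limma, adjusted p = 1.7e-07). Ifitm3, which blocks virus entry, had 0.67, 0.79 and 0.99 against -1.81, -1.31 and -0.55 (change 2.07 ± 0.17; limma, adjusted p = 2.64e-07). Slfn4, a Schlafen gene of myeloid cells, rose by 3.75, and outside the list Ifitm2, a relative of Ifitm3, rose by 3.45. The antiviral synthetase Oas2 (2.46) and its relative Oasl1 (1.62) and the chemokine Cxcl10 (2.12) rose as well. Members that did not pass included Isg15 (0.73), Rsad2 (-0.74), Irf9 (0.27) and Ddx58 (-0.14). Rsad2 passed as a fall under several alternatives. Among them were quantile normalization (-1.10, limma, adjusted p = 0.000391), no centring (-0.84, limma, adjusted p = 0.0190) and all 28 arrays (limma, adjusted p = 0.0333). Isg15 passed as a rise under several, among them all 28 arrays (limma, adjusted p = 0.0377). Ifi203 fell by 0.64.

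MHC class I genes, which interferon also induces, were divided. Of 14 members 5 rose and 4 fell. B2m, the light chain of class I, had 3.84, 4.07 and 4.34 at 200 cGy against 2.82, 3.07 and 3.28 in nonirradiated mice (change 1.01 ± 0.10; limma, adjusted p = 1.71e-06), and H2-T23 rose by 0.76. Canx, the calnexin chaperone, fell by 0.60. The median was 0.19 and turned to -0.15 after quantile normalization, under which H2-T23 did not pass (limma, adjusted p = 0.0857). Without mice 2, 3 and 6, 3 rose and 2 fell.

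Genes of ribosome assembly were lower in all irradiated mice. Of 47 measured ribosome biogenesis genes, 37 fell and 1 rose (median -0.52), and the per-mouse mean was -0.61 to -0.44 at 200 cGy against -0.08 to 0.06 in nonirradiated mice. Dkc1, the pseudouridine synthase dyskerin, had -1.62, -1.39 and -1.22 at 200 cGy against -0.20, -0.01 and 0.29 (change -1.43 ± 0.10; limma, adjusted p = 7.06e-08). Gnl3, nucleostemin, had -1.55, -1.36 and -1.11 against -0.35, -0.11 and 0.17 (change -1.23 ± 0.09; limma, adjusted p = 1.47e-07). The methyltransferase fibrillarin, Fbl, and its partner Nop56 fell by 0.98 and 0.99, and the abundant nucleolar proteins Ncl and Npm1 by 0.59 and 0.62. Heatr1, a factor of ribosomal RNA transcription, went the other way, with 1.53, 2.09 and 2.80 at 200 cGy against 0.32, 0.98 and 1.06 (change 1.31 ± 0.18; limma, adjusted p = 2.94e-05). Without mice 2, 3 and 6 the counts were 36 and 1.

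The same promoter windows were searched for CACGTG, the E-box letters that Myc and other factors of its class can bind, which read the same on both strands. The motif was present in 7 of 33 fallen ribosome biogenesis genes with a window (21.2%), in 8 of 42 measured genes with a window (19%), in 11.5% of tested genes with a window and in 8.09% of all genes with a window. Windows of 3 of the fallen genes without overlap are shown, with the E-box in capitals.
Tsr1: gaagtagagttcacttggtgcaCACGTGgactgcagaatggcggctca
Nle1: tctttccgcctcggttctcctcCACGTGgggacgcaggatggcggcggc
Nmd3: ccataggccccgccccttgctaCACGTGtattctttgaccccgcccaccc
Tsr1, a factor of small-subunit maturation, lies at chr11:74898082-74898129 on the plus strand and fell by 0.98. Nle1 (chr11:82908346-82908394, minus strand), a factor of large-subunit maturation, fell by 0.96 and Nmd3 (chr3:69721919-69721968, plus strand), the export adaptor of the large subunit, by 0.64. Binding of Myc was not measured.

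Other genes of protein synthesis moved unevenly. Of 20 aminoacyl-tRNA synthetase genes, 16 fell (11 without mice 2, 3 and 6) and none rose (median -0.38), led by Farsb (-1.62) and Vars (-1.45), which charge phenylalanine and valine tRNAs. Vars had -1.69, -1.31 and -1.17 at 200 cGy against -0.45, 0.10 and 0.25 in nonirradiated mice. Of 34 translation factors, 16 fell and 1 rose (median -0.21). The elongation factor subunit Eef1g fell by 0.78, the initiation factors Eif3a and Eif4g2 by 0.81 and 0.75, and Eif5a rose by 0.40, but did not pass without centring (limma, adjusted p = 0.0619).

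Cytosolic ribosomal protein genes were divided, with 17 falls and 6 rises among 53 members (median -0.14). Rpl11, which can bind Mdm2, had 0.20, 0.36 and 0.44 at 200 cGy against 0.74, 0.80 and 0.88 in nonirradiated mice (change -0.46 ± 0.06; limma, adjusted p = 4.14e-05). Rps19 had 1.06, 1.27 and 1.41 against 0.68, 0.75 and 0.82 (change 0.49 ± 0.07; limma, adjusted p = 4.34e-05). Both genes were free of overlap and moved in opposite directions. Ribosomal protein genes have many pseudogenes, and cross-hybridization of their probes was not tested.

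Heat shock and chaperone genes also fell, with 21 falls and 2 rises among 31 members (median -0.51). All 8 measured members of the CCT ring, the chaperonin that folds actin and tubulin, fell, by 0.43 for Cct7 up to 1.03 for Cct3. Tcp1, the alpha subunit of the ring, had -2.15, -1.93 and -1.83 at 200 cGy against -1.14, -1.01 and -0.89 in nonirradiated mice (change -0.95 ± 0.07; limma, adjusted p = 1.61e-07). The mitochondrial Hsp70, Hspa9, fell by 0.92. Proteasome subunit genes gave 9 falls and 1 rise among 32 members at a median of -0.08, with falls of 0.54 for the ATPase Psmc2 and 0.43 for the catalytic subunit Psmb6. Without mice 2, 3 and 6 the proteasome list gave 4 falls and 1 rise.

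Of 70 oxidative phosphorylation genes 18 rose and 13 fell, where 22.2% of all genes rose and 19.4% fell, so their shares were near those of all genes. The median of 0.02 turned to -0.08 without centring, and without mice 2, 3 and 6 the counts were 20 and 8 at a median of 0.11. Small subunits such as Cox8a (0.83), Cox6b1 (0.64) and Ndufb9 (0.60) rose, and the ATP synthase genes Atp5a1 (-0.50) and Atp5g1 (-0.63) fell. Cox8a had -0.31, -0.23 and -0.17 at 200 cGy against -1.24, -1.05 and -0.93 in nonirradiated mice.

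Oxidative stress genes gave 11 rises and 1 fall among 27 members (median 0.22). Fth1, the ferritin heavy chain, had 1.32, 1.45 and 1.68 at 200 cGy against -1.36, -0.64 and -0.52 in nonirradiated mice (change 2.31 ± 0.14; limma, adjusted p = 2.32e-08), whereas Tfrc, which brings iron into the cell, fell. Glutathione reductase, Gsr, rose by 2.33, the glutathione transferase Mgst1 by 2.25, sulfiredoxin, Srxn1, by 2.05, thioredoxin, Txn1, by 1.73 and heme oxygenase, Hmox1, by 1.61. Nqo1, a classical target of the factor Nrf2, had -0.24 and did not pass. Myeloid cells express several of these genes, and the part of the neutrophil and monocyte markers was not tested.

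Cell cycle genes gave 4 rises and 14 falls among 47 members (median -0.05), and 3 and 15 without mice 2, 3 and 6 (median -0.20). Of the replication licensing genes, Cdt1 (-1.18), Mcm6 (-0.65), Mcm5 (-0.63), Mcm7 (-0.57) and Mcm3 (-0.53) fell, while Mcm2 (-0.25) and Mcm4 (0.39) did not pass. Mcm4 passed as a rise under several alternatives, among them all 28 arrays (limma, adjusted p = 0.0329). The phosphatase Cdc25b fell by 1.34. Ccnd3, cyclin D3, had 1.93, 2.07 and 2.34 at 200 cGy against 0.15, 0.52 and 0.80 in nonirradiated mice (change 1.61 ± 0.10; limma, adjusted p = 4.69e-08), and Ccnd1 rose by 1.01. The mitotic markers Mki67 (-0.04) and Top2a (-0.33) did not pass, and both lay far below the reference RNA, with highest levels of -3.56 for Mki67 and -3.29 for Top2a in any mouse.

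The smaller lists held single clear genes. Of 17 glucocorticoid-responsive genes 9 rose and 2 fell (median 0.33, and 0.47 without mice 2, 3 and 6): the metallothionein Mt2 rose by 0.67, whereas Tsc22d3, a transcript that glucocorticoids induce in lymphocytes, fell by 0.66. Of 27 genes of fatty acid and cholesterol synthesis 5 rose and 5 fell (median -0.06), near the shares of 22.2% and 19.4% over all genes, and without mice 2, 3 and 6 the counts were 4 and 7. The list had Scd1 (-2.27) and the regulator Srebf2 (-0.80) among the falls and the elongase Elovl6 (1.18) among the rises. Of 7 histone genes 3 rose: H2bc4 by 1.77, H1f2 by 1.05 and H3f3b by 0.53 (list median 0.19, and 0.30 without mice 2, 3 and 6). Ppp1r2, an inhibitor of protein phosphatase 1, belonged to no list and rose by 1.44 ± 0.09, with 1.46, 1.82 and 1.89 at 200 cGy against 0.02, 0.33 and 0.49 (limma, adjusted p = 4.05e-08). The microtubule-associated gene Mtus1 (3.18) completed the 10 largest rises of genes without overlap between the groups.

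The same mice were also set against the neighbouring doses, in a fit of all 28 arrays with 9076 genes. Relative to 50 cGy, 1790 genes were higher and 1883 lower at 200 cGy (19.7% and 20.7%, together 40.5%). Relative to 1000 cGy, 1080 were higher and 1819 lower (11.9% and 20%, together 31.9%). Both comparisons use the same 7 arrays at 200 cGy, and both depend on the scaling. Without centring 1074 genes were higher and 2640 lower than at 50 cGy, and 1858 were higher and 952 lower than at 1000 cGy. After quantile normalization 1389 were higher and 2139 lower than at 50 cGy, and 1110 were higher and 860 lower than at 1000 cGy. Which genes of a list differ from these doses was not examined under the other scalings.

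Along the doses, p53 targets went on rising. Of 31 members, 21 were higher at 200 cGy than at 50 cGy and 3 lower, and 2 were higher and 22 lower than at 1000 cGy. B cell markers went on falling, with 10 of 14 lower at 200 than at 50 cGy and 10 of 14 higher than at 1000 cGy. The myeloid lists differed mainly from 50 cGy: each of the 8 neutrophil markers exceeded its level at 50 cGy, and 4 of 8 were lower than at 1000 cGy, while of the 31 inflammatory genes 24 were higher than at 50 cGy, and 3 were higher and 4 lower than at 1000 cGy. Of 43 interferon-stimulated genes, 25 were higher than at 50 cGy and 30 lower than at 1000 cGy.

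A small set of genes differed at 200 cGy from all 3 other groups in the same direction. Of 9076 genes, 20 (0.22%) were higher at 200 cGy than in each of the other 3 groups and 27 (0.297%) were lower. Tnfsf9, the ligand of the costimulatory receptor 4-1BB, had medians of -1.75, -1.64, -0.12 and -0.89 at 0, 50, 200 and 1000 cGy, and its 7 values at 200 cGy, from -0.57 to 0.42, lay above all 21 others. Igfbp4, a binding protein of insulin-like growth factors, had means of -0.35, -0.00, 0.66 and -0.41, and its lowest value at 200 cGy was 0.38 against a highest value of 0.26 in the other groups. Ndrg3, a hypoxia-related gene, had -0.02, 0.10, 0.69 and -0.24, also without overlap. The fibronectin gene Fn1 (-4.76, -4.56, -3.77 and -4.38) and the zinc finger gene Zfp281 (1.07, 0.88, 1.71 and 1.13) overlapped with the other doses.

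Of the genes that were lowest, Plk2 had means of -0.53, -0.60, -1.20 and -0.22 at 0, 50, 200 and 1000 cGy, and the difference between 1000 cGy and nonirradiated mice did not pass (limma with 28 arrays, adjusted p = 0.0651). Stac2, an adaptor of calcium channels, had 0.33, -0.16, -0.69 and -0.06. Acsl3, an acyl-CoA synthetase (-1.76, -1.96, -2.59 and -1.88), Pxdc1 (0.94, 0.99, 0.41 and 1.13) and the peptidyl-prolyl isomerase Fkbp11 (-3.80 at 200 cGy, against -3.17 in nonirradiated mice and -3.10 at 50 cGy) followed. Against nonirradiated mice, the call of Fkbp11 was lost under 6 of 25 alternatives and that of Zfp281 after quantile normalization. Which genes these were depended on the scaling: of the 20 highest and 27 lowest genes, 8 and 7 remained without centring, 11 and 18 after quantile normalization, and 16 and 16 with array weights. Under 11 other settings the sets held 11 to 40 and 16 to 50 genes, and Tnfsf9, Igfbp4, Fn1, Ndrg3, Gng2, Plk2, Pold2 and Stac2 were in them every time. Gng2, a G protein subunit, and Pold2, a subunit of DNA polymerase delta, were named for this reason after their values were seen.

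**Figure D5:**
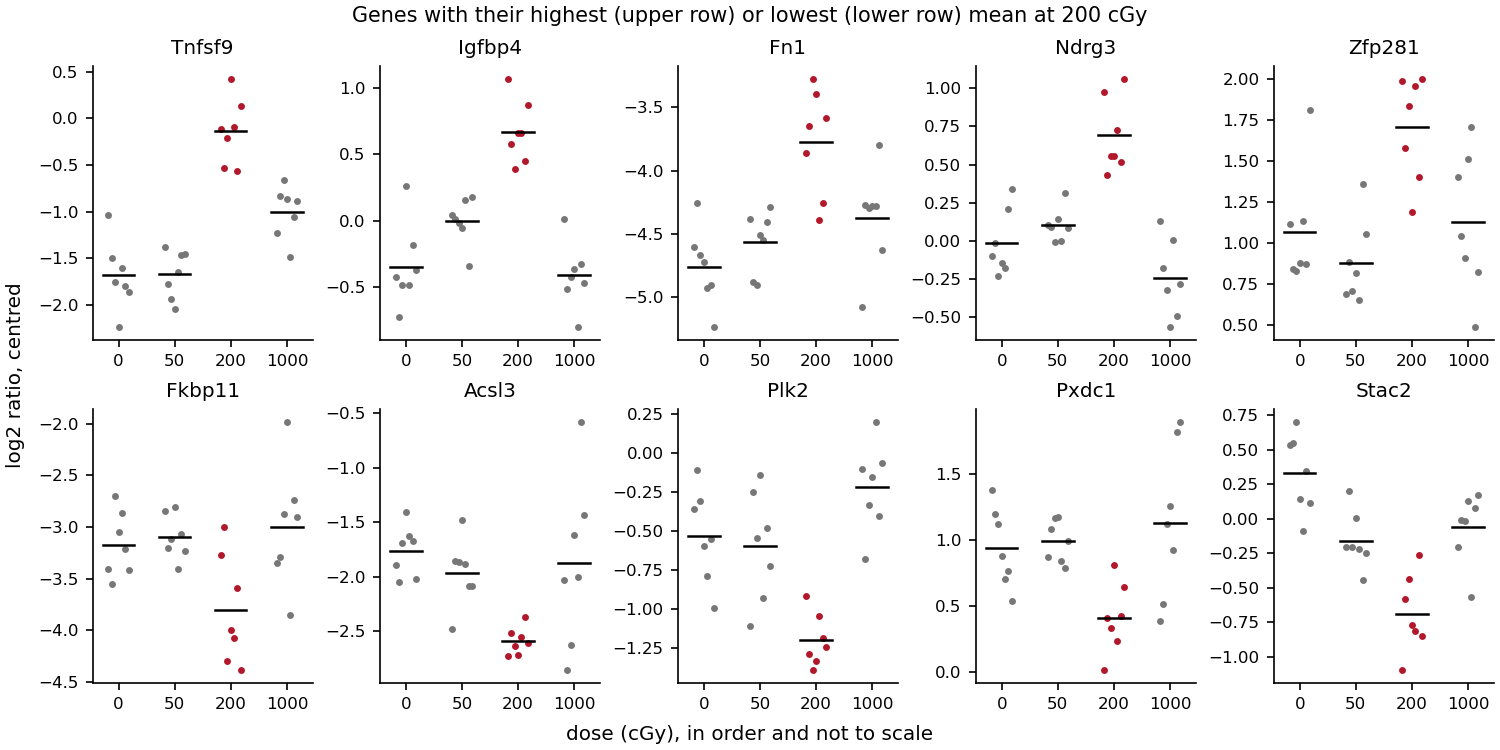
Centred log2 ratios of 5 genes that passed as higher and 5 that passed as lower at 200 cGy than at every other dose. They were ranked by the smallest of their differences from the other doses, not by their level. Doses run from 0 to 1000 cGy, each point a mouse and each line a mean, with 200 cGy in red. All 7 values of Tnfsf9, Igfbp4 and Ndrg3 at 200 cGy lie above all values at the other doses.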

How the data were processed

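The authors hybridised Cy5-labelled RNA of each mouse with a Cy3-labelled universal mouse reference RNA on spotted arrays of 70-mer oligonucleotides, took the median of ratios of each spot and left out any spot whose signal in at least 1 channel was below 100. The deposited values are log2 ratios of sample over reference. How arrays were normalized to each other was not stated in the sources read. The study also reports imputing missing values from nearest neighbours. The deposited table kept 2174 missing values and 479 values at the lowest ratio of 0.01. Whether some of its other values were imputed is not known.

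Each array was centred on its median. Features with at least 5 values a side were tested with limma 3.58.1 in R 4.3.3 (lmFit, eBayes), with Benjamini-Hochberg adjustment over all features and a threshold of 0.05. The platform annotation gave 1 gene symbol to 10820 probes, several to 232 and none to 5670, and probes of a gene were averaged. The comparisons with 50 and 1000 cGy came from a fit of all 28 arrays. Measures of whole arrays were compared by exact permutation tests over 3432 splits. Groups and replicate numbers came from the labels. No source used here says whether mice of a group were irradiated and bled together.

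The rule for named genes took, among called genes without overlap, the 10 that rose most and the 10 that fell most. It took from each list the 3 lowest adjusted p-values, and the 10 genes with the largest SD at 200 cGy. Of the genes that passed as higher or as lower at 200 cGy than in every other group, it took 5 each. These had the largest values of their smallest difference from the other groups. Ei24, Ppp1r2 and Ms4a1, which the study names, were added. Other members of lists named in the text were chosen after their values were seen, and the 28 lists and the members were chosen with earlier results of these data known. Promoter sequences are from RefSeq (GRCm38.p6), to which 10802 named probes matched by gene ID. The fit was tested on simulated data with 50 probes changed per size among 16665, of which 36% were recovered at a log2 change of 0.5 and 84% at 1. As alternatives, values were left uncentred or quantile-normalized, arrays were weighted, moderation was robust, all 28 arrays were fitted, and there were a replicate block, other limits on missing values, 1 probe per gene and each array left out. Mice 1, 4, 5 and 7 alone at 200 cGy were added after seeing the data.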

Additional observations from a re-analysis of the deposited data

Results flagged for a closer look

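Of 480 sets of 5 to 7 values tested for a lone extreme value with Dixon's criterion, 44 held one. Chance gives about 1 in 20 for independent sets. These sets share the same mice, and list means share genes with the named genes, so that rate is no benchmark here. Of these, 10 were at 200 cGy, 24 in nonirradiated mouse 7 and 10 in other nonirradiated mice.

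At 200 cGy, the lone values were spread over several mice. Mouse 1 was lowest in Pf4 (3.22) and in the mean of platelet markers (0.93). Mouse 2 was lowest in the mean of T cell markers (-0.06) and in Rps27 (-6.28, which is the lowest ratio of the table after centring). Mouse 4 was highest in Gata1 (2.78) and lowest in Mcl1 (2.05), and mouse 5 was highest in the mean of MHC class I genes (0.26). Mouse 6 was lowest in Dcxr (0.48) and H2-DMa (2.51) and highest in Socs3 (-1.38).

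Nonirradiated mouse 7 was the highest control in myeloid and inflammatory genes, with Bst1 at 2.06, Lcn2 at 2.43, Ly6g at 1.86, Clec5a at 1.31, Slfn4 at 3.52, Ifitm2 at 0.64, Tnfaip2 at 1.36, Myd88 at 1.09, Ier3 at -1.25 and Gsr at 1.98, and in the mean of neutrophil markers (1.33). It was also highest in Fas (1.95), Mcl1 (2.18), Gng2 (1.80), Zfp281 (1.81), Mcm4 (-0.72) and Rps27 (2.78). It was the lowest control in Pf4 (-0.69), Ppbp (3.19) and the mean of platelet markers (-1.89), and in Vpreb3 (1.99), Pou2af1 (0.55), Heatr1 (0.32) and Vars (-0.45). Without this mouse the log2 fold changes of Bst1 and Lcn2 were 4.19 and 4.09, and that of Treml1 was 1.51.

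In the other controls, mouse 1 was lowest in Ddx58 (-0.31), and mouse 2 was highest in Btg2 (1.94) and in missing values (215) and lowest in Eef1g (-0.62). Mouse 3 was lowest in Ppp1r2 (0.02) and highest in Psmc2 (-0.58). Mouse 5 was highest in Atp5g1 (-0.44), Xrcc5 (-0.29) and the mean of MHC class I genes (0.15) and lowest in Jchain (-5.48).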

How the results depend on the processing

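With each array left out in turn, 1865 to 2021 genes rose and 1622 to 1829 fell, and 3258 to 3518 probes rose and 3102 to 3420 fell. With each array at 200 cGy left out, 1517 to 2055 genes were higher and 1633 to 1985 lower than at 50 cGy. Against 1000 cGy, 808 to 1317 were higher and 1285 to 2174 lower. In the same fits 11 to 31 genes passed as highest and 16 to 33 as lowest at 200 cGy against all other groups. The extremes of the highest set came without mouse 1 (11) and mouse 6 (31), and those without mouse 5 held 13 highest and 16 lowest genes. Without mouse 7 at 200 cGy, 16 genes were lowest. Without centring, 1074 genes were higher and 2640 lower than at 50 cGy, and 1858 were higher and 952 lower than at 1000 cGy. After quantile normalization 860 were lower than at 1000 cGy. Array weights gave 40 genes highest and 50 lowest at 200 cGy. The difference in missing values was -59.9 to -30.6, and that in the SD within arrays 0.0454 to 0.0789, with an exact permutation p of 0.108 over all arrays, 0.0460 without mouse 1 at 200 cGy and 0.0449 without nonirradiated mouse 3.

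The replicate numbers did not pair the mice: the mean correlation of deviations was -0.0850 for mice with the same number (-0.448 to 0.401) and 0.0151 for others, and 1 of 14 mice was closest to its own number. With the replicate number as a block, 1819 genes rose and 1543 fell, and 3199 probes rose and 3018 fell. For 3 named genes the sign turned after quantile normalization: Bbc3 had -0.0086 (limma, adjusted p = 0.983), Alas2 -0.31 (limma, adjusted p = 0.0149) and Jchain -0.54 (limma, adjusted p = 0.0174). Of the list medians, anti-apoptotic genes (-0.09), T cell (-0.17) and NK cell markers (-0.12) and MHC class I genes (-0.15) turned negative after quantile normalization, and oxidative phosphorylation genes (-0.08) without centring. Of 177 named genes called, 21 lost the call under at least 1 of 25 alternatives. Other named genes passed only under an alternative, as falls in Btk, H2-Eb1, Ciita, Ddb2, Rsad2, Cd3g, Cd36, Jun, Mcm2 and Top2a. Rises that passed only there were those of Apaf1, Chek2, Cd3e, Ercc5, Gadd45a, Irf9, Isg15 and Mcm4. The causes were not tested.

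Signal over background could not be examined, since the table holds ratios only. The authors removed dim spots, but whether the missing values are those spots was not stated in the sources read. Changes of 0.5 on the log2 scale were recovered in 36% of simulated probes, with 50 probes changed per size among 16665. In the data 41.5% of the 16665 probes were called, and the Benjamini-Hochberg cut-off depends on this share. The 36% therefore does not give the share of such changes found or missed here, which was not tested.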
